A study of Mus musculus with 12 samples.

Results

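Open chromatin was compared at 505 broad regions that lay at gene ends and carried a peak in every library, drawn from 95132 merged regions on chromosomes 1 to 19. Peaks of 12 ATAC-seq libraries were merged wherever they overlapped by at least 1 bp. A merged region was kept when a peak of all 12 libraries overlapped it, when it was at least 2000 bp wide, and when it lay within 1 kb of an annotated end of a protein-coding gene. Presence in every library was met by 22472 regions, here called constitutive, and 9453 of these lay at gene ends. The 505 broad ones made up 5.34% of these, and the other 8948 are called narrower. The regions were thus chosen by values of the peak lists themselves, and their width, their presence in every library and their position are descriptions, with no test.

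The libraries came from mouse embryonic stem cells of a BL6xCAST cross, pluripotent cells grown here on gelatin in a mixture of 80% 2i medium, which holds inhibitors of GSK3 and MEK, and a serum medium, both with LIF. In synHPRT1R cells the synthetic synHPRT1R construct was integrated on chromosome X, and in synHPRT1 cells the synHPRT1 construct. Each construct was represented by 2 clones with 3 replicates a clone, so that there were 6 synHPRT1R and 6 synHPRT1 libraries, each made from 50000 cells with 10 cycles of PCR. The stated aim of the series was to learn whether the constructs are open chromatin, with the mouse genome as comparison, and the autosomal regions described here belong to that comparison. Separate cultures are not stated for the replicates of a clone, and a p-value here thus reflects the spread among these libraries, part of which may be technical. The mouse strains, the culture and the integration on chromosome X were shared by both genotypes. How the clones were derived is not given.

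In ATAC-seq the Tn5 transposase inserts sequencing adapters into DNA that is not covered by nucleosomes or other proteins, and a peak marks a stretch with more insertions than the background. Active promoters keep a nucleosome-depleted stretch over the transcription start, and most promoters in mammals that lie in CpG islands are accessible in many cell types. In embryonic stem cells this includes many CpG-rich promoters of developmental regulators that are held silent by Polycomb complexes.

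Promoter sequences are shown for the 4 widest regions and for the regions with the highest and lowest ranks of fold enrichment. They give the sequence over which each region was centred or from which it was displaced. They are RefSeq sequences of build GRCm38.p6, which run from 250 bases before to 50 bases after the annotated gene start, 5′ to 3′ on the gene's strand, with every CpG dinucleotide in capitals. For the widest region the gene was Jun, which encodes a subunit of the AP-1 transcription factor (chr4:95052173-95052472, minus strand).
Jun: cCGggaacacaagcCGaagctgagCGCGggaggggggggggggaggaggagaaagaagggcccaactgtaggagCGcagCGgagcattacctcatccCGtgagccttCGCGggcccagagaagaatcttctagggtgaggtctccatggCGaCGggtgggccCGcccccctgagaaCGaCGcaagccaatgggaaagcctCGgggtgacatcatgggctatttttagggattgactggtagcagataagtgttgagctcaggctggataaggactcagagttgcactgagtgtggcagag
The second widest region lay at the predicted genes Gm20783 and LOC108167694, and the promoter of the second of these is given (chr9:124423351-124423650, minus strand).
LOC108167694: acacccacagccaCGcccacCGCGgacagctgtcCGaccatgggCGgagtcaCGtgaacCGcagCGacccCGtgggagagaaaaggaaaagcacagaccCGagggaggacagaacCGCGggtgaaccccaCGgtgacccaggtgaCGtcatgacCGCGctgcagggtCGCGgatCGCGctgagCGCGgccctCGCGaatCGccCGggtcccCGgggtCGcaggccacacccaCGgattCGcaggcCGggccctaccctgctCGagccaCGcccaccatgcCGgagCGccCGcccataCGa
Next in width was Fat4, a giant protocadherin of planar cell polarity (chr3:38886690-38886989, plus strand).
Fat4: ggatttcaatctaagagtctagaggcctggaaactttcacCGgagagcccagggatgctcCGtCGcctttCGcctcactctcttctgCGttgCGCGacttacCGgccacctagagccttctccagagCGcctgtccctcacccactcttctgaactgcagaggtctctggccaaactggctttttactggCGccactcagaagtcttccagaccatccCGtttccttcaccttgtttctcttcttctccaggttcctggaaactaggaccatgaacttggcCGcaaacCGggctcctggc
The fourth was Adgrl3, a latrophilin, which is an adhesion G protein-coupled receptor (chr5:81021343-81021642, plus strand).
Adgrl3: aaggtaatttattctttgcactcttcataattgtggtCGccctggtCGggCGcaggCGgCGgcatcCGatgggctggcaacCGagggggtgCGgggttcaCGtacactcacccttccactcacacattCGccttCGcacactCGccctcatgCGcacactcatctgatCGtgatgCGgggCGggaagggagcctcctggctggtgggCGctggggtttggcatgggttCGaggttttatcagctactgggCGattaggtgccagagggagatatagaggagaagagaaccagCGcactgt
The highest-ranked region lay at Flvcr1, a membrane transporter of the major facilitator family (chr1:191026141-191026440, minus strand).
Flvcr1: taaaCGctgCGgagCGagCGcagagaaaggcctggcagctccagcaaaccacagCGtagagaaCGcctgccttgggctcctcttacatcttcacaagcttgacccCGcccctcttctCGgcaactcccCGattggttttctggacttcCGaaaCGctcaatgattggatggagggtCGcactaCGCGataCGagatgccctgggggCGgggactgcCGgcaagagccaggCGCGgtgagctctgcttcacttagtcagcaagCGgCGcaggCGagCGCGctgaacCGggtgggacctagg
Next in rank was Magi3, a scaffold protein of cell junctions (chr3:104220357-104220656, minus strand).
Magi3: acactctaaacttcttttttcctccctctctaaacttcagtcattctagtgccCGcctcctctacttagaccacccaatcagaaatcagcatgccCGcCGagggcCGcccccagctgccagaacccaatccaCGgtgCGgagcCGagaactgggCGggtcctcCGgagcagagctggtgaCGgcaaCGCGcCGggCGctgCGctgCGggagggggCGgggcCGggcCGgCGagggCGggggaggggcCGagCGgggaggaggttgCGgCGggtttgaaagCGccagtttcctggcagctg
The lowest-ranked region lay at Crlf2, a subunit of the receptor for thymic stromal lymphopoietin (chr5:109558944-109559243, minus strand).
Crlf2: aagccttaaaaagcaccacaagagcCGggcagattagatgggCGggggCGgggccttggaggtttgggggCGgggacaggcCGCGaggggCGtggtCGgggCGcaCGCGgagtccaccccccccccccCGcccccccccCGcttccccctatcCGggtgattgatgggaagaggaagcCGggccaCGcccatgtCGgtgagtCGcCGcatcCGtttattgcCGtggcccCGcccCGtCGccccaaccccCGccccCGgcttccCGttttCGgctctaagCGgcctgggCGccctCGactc

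These 7 promoters held between 13 and 37 CpGs in 300 bases, in the order of highest first LOC108167694 with 37, Crlf2 with 31, Magi3 with 26, Flvcr1 with 25, Adgrl3 with 20, Jun with 15 and Fat4 with 13. The median over all 20085 RefSeq promoters on these chromosomes was 14, with quartiles of 4 and 25. Of the 7, Fat4 alone lay below that median. The GC box GGGCGG, counted on both strands, occurred 6 times at Crlf2, 4 times at Magi3 and not at all at Fat4, and 47.0% of all promoters held it at least once. The NF-Y box CCAAT, also on both strands, occurred at Jun, Flvcr1 and Magi3 among the 7, against 38.1% of all promoters. A letter match describes this window only and is no evidence of binding.

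The strongest peak of a library lay at different places relative to these promoters. At Jun, the strongest summit fell between 95052229 and 95052346 on chromosome 4 in all 12 libraries, inside the promoter window printed above. At Flvcr1 the 12 summits fell between 191026217 and 191026359, also inside its window. At Magi3 they fell between 104220590 and 104220658, reaching just past the upstream edge of its window. At Adgrl3, by contrast, all 12 fell between 81019661 and 81019960, upstream of the printed window, for a gene with 2 other annotated starts in the table. At Crlf2 they fell between 109556833 and 109558666, all downstream of the start, and at Fat4 between 38885702 and 38887979, on both sides of it.

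The merged width of the 505 regions had a median of 2203 bp, quartiles of 2072 and 2416 bp and a range of 2001 to 3824 bp. The narrower constitutive regions at gene ends had a median of 1182 bp. Just inside the width limit lay Ywhag, Ppp1r3g and Ivns1abp, each 2001 bp wide, with median ranks of 27.5, 38.7 and 60.4. Just outside it, at 1999 bp, lay the region shared by Copg1 and Hmces, the region shared by Fzd4 and Tmem135, and Lemd3, with median ranks of 26.9, 71.2 and 74.5. The rank, used throughout, is the percentile of a region's highest MACS2 fold enrichment among the 22472 constitutive regions of the same library, from 0 for the weakest to 100 for the strongest. The fold is the authors' value, deposited per peak, and was used only to order regions within 1 library. It is a ratio to a background, so a low rank is a low ratio and not a measured low number of insertions. For the limit on distance, Rpl24 and Zbtb11 shared the region farthest inside, 982 bp from an end, followed by Tcte1 at 971 bp and Lrrc1 at 926 bp. Beyond it lay App at 1050 bp, Nkx2-1 at 1096 bp and Tchh at 1131 bp.

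**Figure D1:**
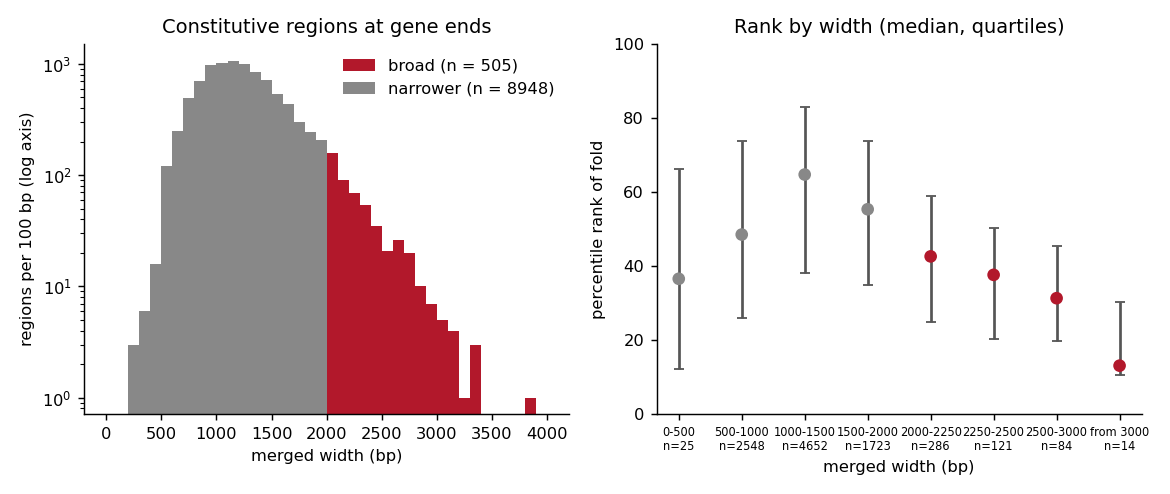
Left, the number of constitutive gene-end regions per 100 bp of merged width on a log axis, broad in red and narrower in grey. Right, the percentile rank of fold by width class, with the median as a point and the quartiles as bars: the median was 64.8 at 1000 to 1500 bp and 13.2 from 3000 bp.

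A merged width of 2000 bp was in most cases the union of shorter peaks. A single peak of at least 2000 bp in at least 1 library was present in 241 of the 505 regions, and the widest single peak had a median of 1990 bp. The distance from the outermost start to the outermost end of the peaks of 1 library reached 2000 bp in some library for 369 regions, in all 12 libraries for 25, and at the median over libraries for 119. The stretch covered by a peak in all 12 libraries had a median of 711 bp, with quartiles of 413 and 1033 bp. In 34 regions, although each library had a peak, no base was covered in all 12. The widest peak of any region, 3373 bp, was at Gm20783 and LOC108167694, whose stretch covered in all 12 libraries, 2099 bp, was the longest of the 505.

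The place of the strongest summit moved within many regions. Its spread over the 12 libraries had a median of 741 bp and quartiles of 344 and 1281 bp. It exceeded 1000 bp in 190 regions and stayed under 100 bp in 12. The least spread, 7 bp, was at Cep112, and the most, 2724 bp, at Smarca2. Both were picked out after their values were seen.

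Genes of quite different roles had the 20 widest regions. Transcription factors among them were Jun at 3824 bp, Bhlhe40, a basic helix-loop-helix repressor of the circadian system, at 3242 bp, and Fezf2, a zinc finger factor of forebrain neurons, at 3148 bp. Chromatin proteins were Smarca2, an ATPase of the SWI/SNF remodelling complexes, at 3165 bp, and Bend3, a BEN domain repressor, at 2961 bp. The histone genes H2ac23, H2bc23 and H4c17 shared a region of 3104 bp. Receptors and cell-surface proteins were Fat4 at 3364 bp, Adgrl3 at 3314 bp, the GDNF receptor subunit Gfra1 at 3006 bp, the Toll-like receptor 4 interactor Tril at 3012 bp, the chemokine receptor Cxcr4 at 2963 bp and the growth factor receptor Igf1r at 2961 bp. The remaining ones were the region of Gm20783 and LOC108167694 at 3383 bp, Tmem132e at 3185 bp, the pseudokinase Trib2 at 3031 bp, the secreted BMP antagonist Vwc2 at 3024 bp, the kinase Mast4 at 3012 bp, Mocos, an enzyme of molybdenum cofactor maturation, at 2997 bp, the sulfotransferase Chst2 at 2981 bp, and Rims2, a scaffold of presynaptic release sites, at 2965 bp.

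The widest regions mostly ranked low in fold. Of the 20, 18 had a median rank under 50 and 11 under 20. Jun ranked from 20.4 to 52.2 with a median of 41.3 in the synHPRT1R libraries, and from 30.9 to 47.0 with a median of 39.4 in the synHPRT1 libraries. Smarca2 ranked from 1.25 to 6.36 with a median of 2.22 in synHPRT1R, and from 0.376 to 6.51 with a median of 3.25 in synHPRT1. At both regions the genotypes overlapped over most of their range. Chst2 and Mast4 were the 2 regions above a median of 50. Chst2 ranked from 40.2 to 69.6, median 61.0, in synHPRT1R and from 25.2 to 78.4, median 52.5, in synHPRT1. Mast4 ranked from 41.8 to 63.1, median 56.4, in synHPRT1R and from 34.8 to 76.2, median 56.7, in synHPRT1. Both again overlapped widely.

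**Figure D2:**
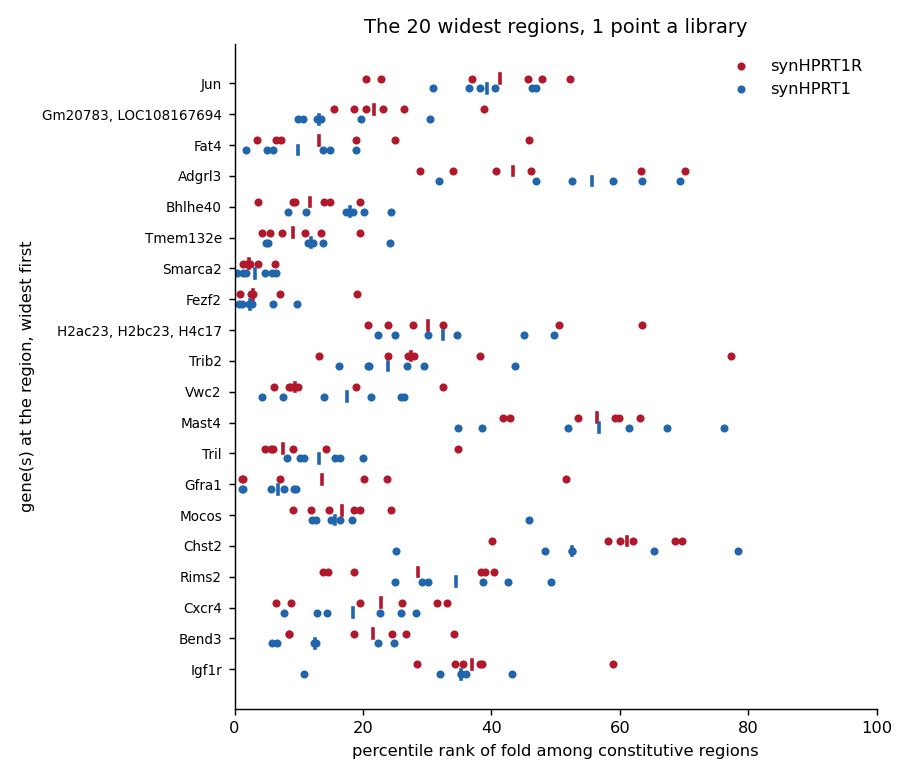
Percentile rank of fold (0 to 100) in each library for the 20 widest regions, widest at the top, with synHPRT1R points above synHPRT1 points and short vertical lines at the medians of 6 libraries. Smarca2 and Fezf2 lay near 0 in most libraries, while Adgrl3, Mast4 and Chst2 spread over the middle of the scale.

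Of the 20 widest, 14 had strongest summits more than 1000 bp apart between libraries, and 5 kept them within 400 bp, which were Jun, Adgrl3, Mast4, Chst2 and the region of H2ac23, H2bc23 and H4c17. Smarca2, Fezf2 and Gfra1 had no base covered in all 12 libraries. At Smarca2 the peaks covered between 20.0% and 60.3% of the region, median 36.4%, in synHPRT1R, and between 12.7% and 60.6%, median 20.8%, in synHPRT1. At Jun they covered between 61.4% and 82.6%, median 70.6%, in synHPRT1R, and between 55.9% and 83.4%, median 74.2%, in synHPRT1. The filled share thus differed between these wide regions, but neither was an unbroken block. Jun had 2 to 3 peaks in the libraries of each genotype, and Smarca2 had 2 to 3 in synHPRT1R and 1 to 4 in synHPRT1.

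The 505 regions lay at 570 protein-coding genes, which is 2.76% of the 20665 on these chromosomes, while 47.8% of genes had only narrower constitutive regions at their ends. A single gene was present at 442 regions, 2 genes at 60 and 3 genes at 3. More than 1 gene was present at 12.5% of the broad regions and at 16.6% of the narrower ones. An annotated end lay inside 454 of the regions, and the other 51 had their nearest end outside. Genes at broad regions had a median length of 39.7 kb, against 24.6 kb for genes at narrower regions and 17.5 kb over all protein-coding genes. Genes longer than 100 kb numbered 173, or 30.4%, at broad regions, against 14.02% at narrower regions and 11.2% of all genes.

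Lists of genes by role, chosen with earlier results of these data known, are described by their counts beside the 2.76% of all genes. That share also counts genes without any constitutive region at an end. Only narrower regions were present at 47.8% of all genes, and at 35.6% of the developmental and 48.6% of the signalling genes. For the housekeeping, cytosolic ribosomal protein and cell cycle genes this share was 66.7%, 66.7% and 76.9%. Developmental transcription factors of the homeobox, Pax, Fox, Gata, T-box and related families had a broad region at 12 of 101 genes, or 11.9%. They included Sox11 at 2933 bp, Foxl2 at 2771 bp, Neurog2 at 2723 bp, Foxc1 at 2697 bp, Meis1 at 2486 bp and Tbx18 at 2360 bp, and the less wide regions of Sox17, Irx1, Foxe1 and En2. These factors specify lineages that embryonic stem cells have not yet entered. Their median ranks ran from 2.08 at Irx1 to 61.0 at Neurog2, a proneural factor. Sox17, an endoderm factor, had a single peak in every library, and its peaks covered 93.8% of its region on average, the highest mean of the 505.

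Signalling genes had a broad region at 9 of 70 genes, or 12.9%. In the Wnt pathway these were the Frizzled receptors Fzd8, Fzd10 and Fzd1 and the repressor of Wnt targets Tcf7l1, at 2756, 2712, 2331 and 2686 bp. In the FGF pathway they were the receptor Fgfr2 at 2528 bp and the negative regulator of ERK signalling Spred1 at 2626 bp. The BMP and activin pathway had the ligand Bmp7 at 2129 bp and the receptor Acvr2b at 2258 bp, and the Hedgehog pathway had the effector Gli3 at 2045 bp. Their median ranks ran from 19.6 at Fzd8 to 50.6 at Fzd1.

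Pluripotency genes had a broad region at 5 of 43 genes, or 11.6%, and 27 more had only narrower ones. The 5 were Pou3f1, a POU factor of the formative state, at 2663 bp, the TGF-beta family ligand Nodal at 2609 bp, its co-receptor Tdgf1 at 2468 bp, the zinc finger factor Zic2 at 2324 bp and the telomere and replication timing protein Rif1 at 2274 bp. Pou5f1, Sox2, Nanog, Esrrb, Klf4 and Zfp42, which the list also held, were not among them. Tdgf1 ranked from 11.3 to 25.5, median 15.5, in synHPRT1R, and from 3.49 to 48.6, median 10.6, in synHPRT1. Nodal ranked from 8.25 to 30.4, median 19.5, in synHPRT1R, and from 4.94 to 19.8, median 10.3, in synHPRT1. Both thus stood in the lower part of the constitutive regions in nearly every library, and the genotypes overlapped. Of the 10 markers of embryonic stem cells, Tdgf1 had a broad region and 5 others had only narrower ones, while 4 had no constitutive region at an end.

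Housekeeping genes had a broad region at 4 of 24 genes, or 16.7%. They were the glycolytic enzyme Pkm at 2432 bp, the prolyl isomerase Ppia at 2226 bp, the ubiquitin gene Ubb at 2116 bp and the chaperone Hsp90ab1 at 2010 bp, with median ranks between 5.64 and 23.2. Pkm shared its region with Gramd2. Cytosolic ribosomal proteins had 4 of 51, or 7.84%, among them Rpl7 at 2460 bp, Rpl5 at 2083 bp and Rps12 at 2037 bp. Rpl7 shared its region with Rdh10, and the region of Rps12 lay at the gene's other end and not at its start. Cell cycle genes had 3 of 39, or 7.69%, which were the cyclin Ccne2 at 2389 bp, the CDK inhibitor Cdkn2c at 2240 bp and the Myc family member Mycl at 2110 bp, with median ranks of 60.5, 66.2 and 52.6. The cell cycle genes thus ranked above each of the 4 housekeeping genes.

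Chromatin regulators had a broad region at 2 of 59 genes, or 3.39%, near the share of all genes, although 39 had a narrower one. The 2 were the insulator protein Ctcf at 2323 bp and the acetyltransferase Ep300 at 2043 bp. Of a list of genes of differentiated tissues such as liver, blood and muscle, 0 of 24 had a broad region and 2 had a narrower one. Fibroblast markers had Vim alone, 1 of 10. Endoderm markers had Sox17 alone, 1 of 5, and trophoblast and neural markers had 0 of 5 each. Only narrower regions were present at 2 of 10 fibroblast, 1 of 5 endoderm, 2 of 5 trophoblast and 3 of 5 neural markers.

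**Figure D3:**
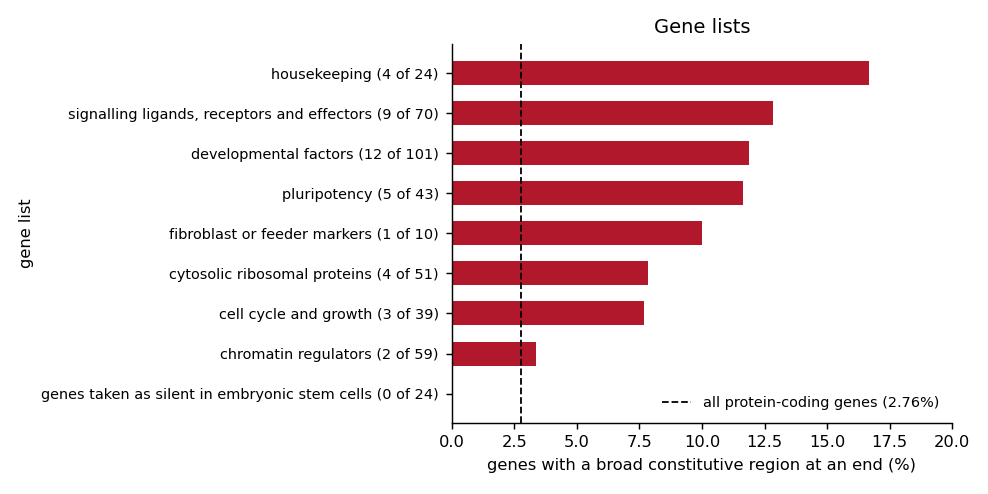
Share of the genes of each list (%) that had a broad constitutive region within 1 kb of an end, with counts in parentheses, and the share over all protein-coding genes, 2.76%, as a dashed line. Housekeeping, signalling, developmental and pluripotency genes each stood above 11%, and the list of genes taken as silent had 0 of 24.

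Among gene families, whose name patterns were chosen after earlier results were seen, histone genes had a broad region at 18 of 75, or 24%, and Forkhead factors at 11 of 41, or 26.8%, beside 2.76% of all genes. Most of the 18 histone genes shared a region with other histone genes, so these shares count genes and not regions. Sox factors had 5 of 18, or 27.8%, which were Sox11, Sox12, Sox17, Sox21 and Sox5, and Krüppel-like factors 3 of 16, or 18.8%. Collagens had 3 of 42, or 7.14%, potassium channels 6 of 92, or 6.52%, and ribosomal protein genes by name 5 of 91, or 5.49%. Near or below the share of all genes were Hox genes with 1 of 39, or 2.56%, which was Hoxd8, solute carriers with 7 of 362, or 1.93%, and zinc finger genes with 8 of 447, or 1.79%. Protocadherins had 1 of 67, or 1.49%, and olfactory receptors 1 of 1104, or 0.0906%. Histone genes share sequence with near-identical copies, and the treatment of reads that map to several places is not given, so their values are uncertain. The same holds for Gm20783, LOC108167694 and the ribosomal protein genes.

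The regions with the most annotated ends were mostly histone clusters, in which short genes lie side by side. The region of H2ac13, H2bc13 and H3c10 held 6 ends in 2431 bp, and those of H2ac20, H2ac21 and H2bc21 and of H2ac23, H2bc23 and H4c17 held 5 each. The regions of H2ac19 and H3c15, of H2ac18 and H3c14 and of H2bc18 and H3c13 held 4 each. H2ac13, H2bc13 and H3c10 ranked from 7.95 to 31.6, median 18.9, in synHPRT1R, and from 4.78 to 57.9, median 12.2, in synHPRT1. The ends at this region were thus many, but its rank was low in most libraries of both genotypes.

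Strand was known for every gene at 374 of the regions, and 367 of these, or 98.1%, held a gene start. Among 7106 narrower regions with known strand the share was 95.8%. By these outermost ends, 7 regions had the other end of the gene alone. At C2cd4b and Ppp1r3g, however, an annotated promoter start also lay within 1 kb, and the remaining 5 were at Tank, Hnrnpa3, Ddx59, Rps12 and the pair Eif4a2 and Rfc4. All 16 regions on chromosome 18 are left out of the counts by strand and start, since no strand was matched there. Hnrnpa3, a nuclear RNA-binding protein, had a broad region at each end, 9240 bp apart. The region at its start ranked from 35.3 to 61.5, median 57.5, in synHPRT1R, and from 27.9 to 66.5, median 54.3, in synHPRT1. The one at its other end ranked from 0.563 to 4.37, median 2.25, in synHPRT1R, and from 4.03 to 30.5, median 9.80, in synHPRT1. In synHPRT1R every value at the start was above every value at the other end, while in synHPRT1 the 2 ranges met.

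Around the gene start the broad regions extended mainly into the gene. Over 344 broad regions with a single known start, the region reached a median of 718.5 bp upstream and 1488 bp downstream, and the downstream side was the longer in 267, or 77.6%. Over 6180 narrower regions the medians were 445 bp and 712 bp, and the downstream side was the longer in 72.3%. At 1000 bp downstream, a peak covered between 42.4% and 66.3% of the broad regions, median 52.3%, over the 12 libraries, and between 11.1% and 16.2% of the narrower ones, median 13.3%. At 1000 bp upstream, the shares were between 13.7% and 20.3% of the broad regions and between 2.15% and 3.28% of the narrower ones. At the start itself the order was not the same, with a median of 76.2% of the broad regions and 80.8% of the narrower ones.

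**Figure D4:**
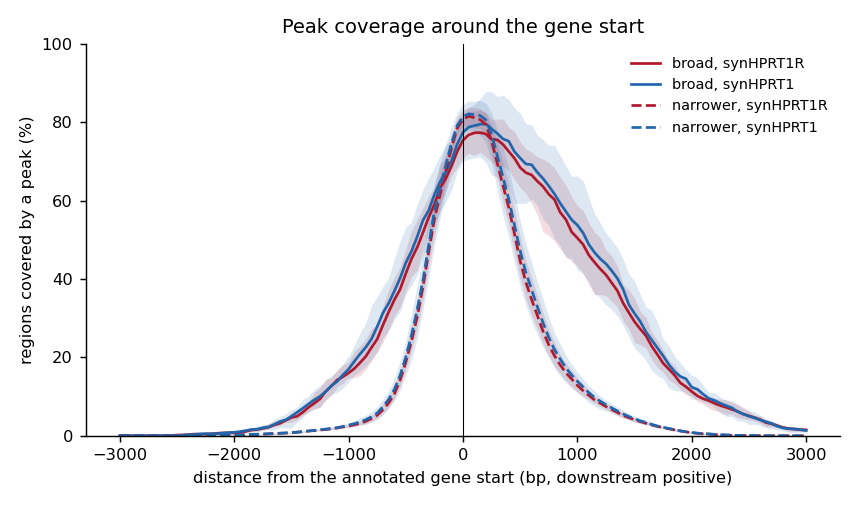
Share of regions covered by a peak (%) by distance from the gene start (bp, downstream positive), for 344 broad regions (solid) and 6180 narrower ones (dashed), with the mean of 6 libraries as a line and their lowest to highest value as a band. Both profiles were lopsided. The median was 52.3% at 1000 bp downstream and 15.8% at 1000 bp upstream for broad regions, and 13.3% and 2.45% for narrower ones. The genotype bands overlapped.

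The strongest summit of a broad region was often away from the start. It lay within 200 bp of the start in 33.1% to 39.2% of the broad regions, depending on the library, and in 61.8% to 64.3% of the narrower ones. It lay more than 500 bp away in 36.9% to 42.4% of the broad regions and in 15.7% to 16.3% of the narrower ones. Its median position was 98.5 to 145 bp downstream of the start in broad regions and 25 to 34 bp downstream in narrower ones. Each of these 12-library ranges of the broad regions lay apart from that of the narrower ones. Width chose the regions, and these values carry no test.

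The median rank of the 505 regions was 39.4, with quartiles of 21.5 and 54.3 and a range of 0.189 to 94.2. The narrower regions had a median of 57.9 and the constitutive regions away from gene ends a median of 44.2. A rank over 50 was found at 146 broad regions, or 28.9%, and at 57.7% of the narrower ones. A rank over 90 was found at 3 broad regions, or 0.594%, and at 10.8% of the narrower ones. Among all listed peaks of its library, the strongest peak of a broad region stood at a median percentile of 68.1. The rule asks for a peak in every library, and the strongest of several peaks was taken. This percentile is thus a description, with no value for other constitutive regions beside it. The fold itself had a median of 6.21 at broad regions and 7.19 at narrower ones.

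Rank was highest at intermediate widths. Over the constitutive gene-end regions its median was 48.6 for 2548 regions of 500 to 1000 bp, 64.8 for 4652 regions of 1000 to 1500 bp and 55.4 for 1723 regions of 1500 to 2000 bp. Within the broad regions it was 42.7 for 286 regions under 2250 bp, 37.7 for 121 of 2250 to 2500 bp, 31.4 for 84 of 2500 to 3000 bp and 13.2 for the 14 from 3000 bp. The widest class is thinly filled, and among the other 3 broad classes the median was also lower with each step in width.

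The 10 highest-ranked regions were at Flvcr1 with a median of 94.2, Magi3 with 90.9, Usp53 with 90.6, the RNA-binding protein Serbp1 with 89.9, AW146154 with 88.1, the amino acid transporter Slc6a15 with 87.9, the guanylate cyclase subunit Gucy1a2 with 86.9, the phosphatase Ptpn12 with 86.4, the topoisomerase Top2b with 85.8 and the phosphatase Ptp4a1 with 84.5. Flvcr1 ranked from 89.5 to 97.6, median 94.2, in synHPRT1R, and from 80.4 to 97.5, median 94.0, in synHPRT1. Its region held a single peak in all 12 libraries. Magi3 ranked from 83.0 to 94.4, median 89.8, in synHPRT1R, and from 89.8 to 98.4, median 93.8, in synHPRT1. Both regions were close to the lower width limit, at 2039 and 2145 bp.

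The 5 lowest-ranked regions were at Crlf2, Rps12, the protocadherin Pcdh7, the homeobox factor Irx1 and the relaxin family peptide receptor Rxfp3, with medians of 0.189, 0.988, 1.25, 2.08 and 2.18. Crlf2 ranked from 0.0912 to 1.297, median 0.171, in synHPRT1R, and from 0.118 to 0.634, median 0.207, in synHPRT1. Yet peaks covered between 76.5% and 94.8% of the Crlf2 region in synHPRT1R and between 65.5% and 95.2% in synHPRT1. At Rxfp3 peaks covered between 13.4% and 35.3% in synHPRT1R and between 13.1% and 49.5% in synHPRT1, the lowest mean share of the 505. Crlf2 and Rxfp3 thus had similarly low ranks, the one with a nearly filled region and the other with a sparse one.

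The regions held 1.49 peaks on average, against 1.05 at the narrower ones. Of 6060 combinations of a region and a library, 3442 had 1 peak, 2277 had 2, 327 had 3 and 14 had 4. In 65 regions there was 1 peak in every library, and in 11 there were 2 or more in every library. Only 66 regions had the same number in all 12 libraries. Most regions were thus a single peak in some libraries and several peaks in others.

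The most peaks per region, 2.92 on average, were found at Adgrl3 and at the chloride transporter gene Clcn4, followed by Bhlhe40 with 2.67, by Vwc2, Bend3 and the somatostatin receptor Sstr1 with 2.58, by Trib2 with 2.5 and by Jun, Gfra1 and the zinc finger gene Zfp93 with 2.42. Adgrl3 had 2 to 4 peaks in the synHPRT1R libraries and 2 to 3 in the synHPRT1 libraries. Clcn4 had 2 to 3 in synHPRT1R and 3 to 4 in synHPRT1. Most of these 10 regions were also among the 20 widest, the exceptions being Clcn4, Sstr1 and Zfp93.

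The regions were found on every autosome, with 39 each on chromosomes 5 and 7, 38 on chromosome 2 and 9 on chromosome 19. As a share of the constitutive gene-end regions of a chromosome, the highest values were 7.33% on chromosome 14, 7.07% on chromosome 3 and 6.93% on chromosome 13. The lowest were 3.28% on chromosome 19, 3.37% on chromosome 8 and 3.58% on chromosome 11. Per 100 protein-coding genes, there were 3.76 on chromosome 3 and 1.28 on chromosome 19, against 2.44 over all 19 autosomes.

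The median gap between neighbouring regions was 2.80 Mb, and 13 neighbouring pairs lay within 100 kb. On chromosome 3, 4 histone regions formed a run, and H2ac19 and H3c15 lay 4538 bp from H2ac18 and H3c14. On chromosome 14 the paralogous factors Zic5 and Zic2 lay 7881 bp apart. Zic5 ranked from 4.06 to 19.2, median 10.7, in synHPRT1R, and from 11.04 to 53.3, median 17.7, in synHPRT1. Zic2 ranked from 33.6 to 51.3, median 41.3, in synHPRT1R, and from 13.6 to 39.7, median 20.2, in synHPRT1. Zic2 ranked above every Zic5 value in the synHPRT1R libraries, while in synHPRT1 the ranges overlapped. Other pairs were Mkrn3 and Peg12 on chromosome 7, both imprinted genes, and C2cd4b and C2cd4a on chromosome 9.

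Between the genotypes, the regions differed by less than the spread between libraries in each of 3 measures. Peaks per region ranged from 1.47 to 1.57 in synHPRT1R and from 1.36 to 1.62 in synHPRT1. They averaged 1.51 ± 0.0354 in synHPRT1R and 1.47 ± 0.0963 in synHPRT1 (SD, n = 6 each), a difference of 0.0314. The synHPRT1R values lay within the range of the synHPRT1 values. The covered share averaged 65.5% ± 6.14 in synHPRT1R and 69.3% ± 9.42 in synHPRT1, a difference of -3.72 percentage points. Peaks per region and covered share were counted in the peak intervals that set the width, so their differences carry no test. The rank averaged 40.4 ± 2.11 in synHPRT1R and 39.8 ± 2.203 in synHPRT1, a difference of 0.616 (two-sided exact permutation p = 0.608, adjusted p = 0.608 over the 3 measures).

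Clones are the independent units, and the smallest p that 2 of them against 2 allow in an exact test is 0.333. Mean peaks per region were 1.49 and 1.53 in synHPRT1R clones 1 and 2, and 1.496 and 1.454 in synHPRT1 clones 1 and 2. The mean covered shares were 68.1% and 63.0% in the synHPRT1R clones and 69.8% and 68.7% in the synHPRT1 clones. The mean ranks were 39.3 and 41.4 in the synHPRT1R clones and 39.6 and 39.9 in the synHPRT1 clones. For ranks, the synHPRT1 clones lay between the synHPRT1R clones.

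Region by region, limma on the rank of all 22472 constitutive regions called 0% of them at an adjusted p of 0.05, and 0 of the 505. At an unadjusted p under 0.05 there were 1573 regions, or 7%, and 15 of the 505, or 2.97%, of which 9 ranked higher in synHPRT1R. The lowest adjusted p among the 505 was 0.555. The median difference, synHPRT1R minus synHPRT1, was 0.583 over the 505 and -0.000741 over all constitutive regions, beside a median standard error of 7.67 over the 505. No tool other than limma was run on single regions.

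The smallest p among the 505 was at Zic2, with a rank of 42.2 ± 6.22 in synHPRT1R and 22.4 ± 9.28 in synHPRT1 (SD, n = 6 each), a difference of 19.8 ± 6.07 (SE) with a limma adjusted p of 0.555. The region of Ankrd27 and Rgs9bp ranked 61.3 ± 13.97 in synHPRT1R and 80.5 ± 6.11 in synHPRT1. Arhgap20, a GTPase-activating protein, ranked 39.0 ± 11.9 in synHPRT1R and 63.9 ± 13.2 in synHPRT1. Their limma adjusted p was 0.566 each. The phosphatase gene Ptprr ranked 50.3 ± 10.9 in synHPRT1R and 30.7 ± 6.94 in synHPRT1, with an adjusted p of 0.605. The region of Hnrnpd and 4930524J08Rik ranked 33.6 ± 15.4 in synHPRT1R and 62.4 ± 20.9 in synHPRT1, with an adjusted p of 0.615. None of the 5 passed the test.

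Depth, as far as the lists show it, differed between libraries. Depth here is the genome-wide background pileup in reads, read from the lists, and not a number of sequenced reads, which was not available. The pileup averaged 2.39 ± 0.431 in synHPRT1R and 2.67 ± 0.724 in synHPRT1 (SD, n = 6 each, exact permutation p = 0.452). It ranged from 1.74 to 3.72 over libraries that listed 38403 to 63704 peaks. The covered share was 79.5% in the deepest library, 80.2% in the next and 57.0% in the shallowest, all 3 of synHPRT1, and ran between 58.7% and 73.6% in the synHPRT1R libraries. The merged width that chose the regions was built from the same peak intervals, to which deep libraries gave the most long peaks, so the relation of covered share to depth carries no test.

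The mean rank was lower in deeper libraries (r = -0.756, rho = -0.832), with r = -0.753 without the 2 farthest. Within genotypes, r was -0.628 in synHPRT1R and -0.850 in synHPRT1, with n = 6 in each. Deep libraries gave the most long peaks to the width that chose the regions, so this relation carries no test. The mean rank of the narrower regions ran between 54.6 and 56.0 over the 12 libraries, and that of the broad ones between 36.5 and 42.2. The part of the choice by width was not tested. Peaks per region were counted in the peak intervals that set the width, so their relation to depth carries no test either. Over 12 libraries r was -0.628, but rho was -0.377, and r was -0.494 without the 2 farthest. Within genotypes, r was 0.290 in synHPRT1R and -0.814 in synHPRT1 (n = 6 each).

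**Figure D5:**
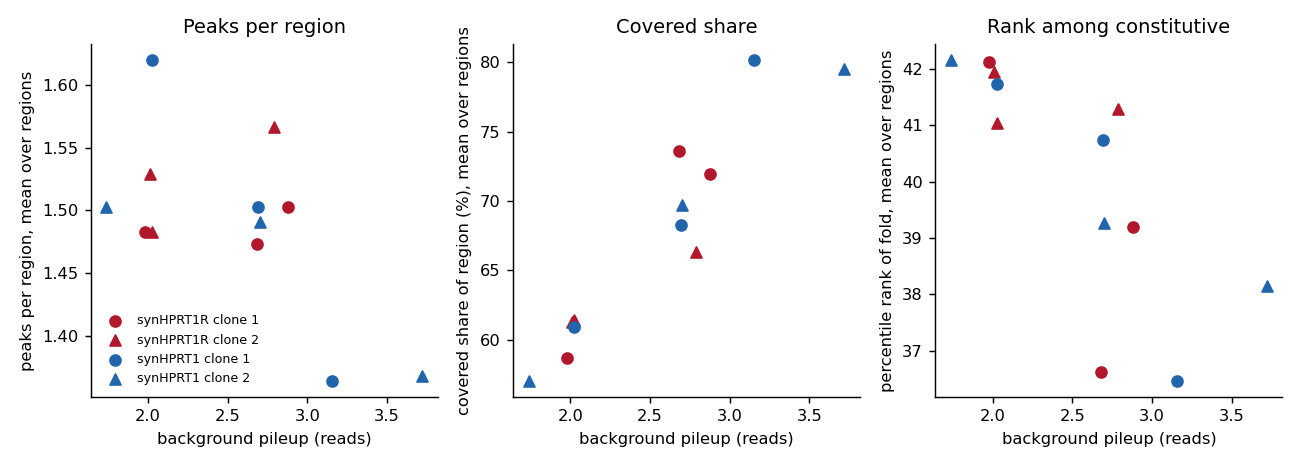
Mean over the 505 regions of peaks per region, covered share (%) and percentile rank of fold against the background pileup (reads), 1 point a library, synHPRT1R in red and synHPRT1 in blue, with circles for clone 1 and triangles for clone 2. Covered share was higher and rank lower in the deeper libraries, and the 2 deepest libraries, both synHPRT1, had the fewest peaks per region.

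In single libraries the number of regions with an unbroken peak of at least 2000 bp went with depth too. It was 129 in synHPRT1 clone 1 replicate 3 and 114 in synHPRT1 clone 2 replicate 1, the 2 deepest libraries, and 15 in synHPRT1 clone 2 replicate 3, the shallowest. In the synHPRT1R libraries it ran between 20 and 71. The part of depth in the width of any single region was not tested.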

How the data were processed

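The data were 12 deposited ATAC-seq peak lists in MACS2 narrowPeak layout, 1 per library. Per the submitters' processing notes, the tools included MACS2 2.1.0, Bowtie2 2.2.9 and SAMtools 1.9, beside bcl2fastq 2.20 and deepTools 3.5.0, and the build was GRCm38. Settings, read shifting and filters are not given in the sources used. The authors' lists give positions, a score, a fold ratio, the −log10 p-value and −log10 q-value of each summit and the summit offset. The deposited fold and its rank within a library were used, and no read count was available.

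Peaks on chromosomes 1 to 19 were merged at 1 bp of overlap, and gene ends came from a RefSeq table of GRCm38.p6. The table gives no strand, so strand came from matched RefSeq promoters, with none matched on chromosome 18. These matched 76.3% of the genes at broad regions, under the 80% needed, so no comparison of promoter composition between classes was made. Depth was the spacing of the 12 commonest folds, which gives the genome-wide background pileup; between 46.5% and 57.7% of peaks lay on such steps within 0.002.

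Genotypes were compared by exact permutation over 924 splits (smallest p 0.00216) and, per region, by limma 3.58.1 in R 4.3.3 with Benjamini-Hochberg adjustment, after tests on simulated data. Correlations with depth are given as r or rho, without a test. Python 3.11.15, NumPy 2.4.6, pandas 2.3.3, SciPy 1.17.1 and matplotlib 3.10.9 were used. Regions named were the 20 widest, the 10 highest and 5 lowest in rank, the 10 each with most peaks or gene ends, the 5 with the smallest p, the 3 nearest each limit, and up to 8 per gene list, of which some are not reported here. The regions and lists were chosen with earlier results of these data known. Alternatives were other widths, distances, overlaps, q-value limits, list lengths and blocks, and leaving out each library.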

Additional observations from a re-analysis of the deposited data

Results flagged for a closer look

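At 4 of the 20 widest regions, a library stood apart from the other 5 of its genotype by more than Dixon's 95% critical value of 0.625 of the range. These were 5 of 56 groups of 6 libraries tested. The 56 covered the 3 measures, the 20 widest regions and the 5 regions with the smallest p, each in both genotypes. Chance gives about 1 in 20. The percentile rank at Fezf2 was 19.1 in synHPRT1R clone 1 replicate 3, and 0.866 to 7.11 in the other 5 synHPRT1R libraries. At Tril it was 34.9 in synHPRT1R clone 1 replicate 2, and 4.81 to 14.3 in the others. At Igf1r it was 58.9 in synHPRT1R clone 1 replicate 3, against 28.4 to 38.6 in the other synHPRT1R libraries, and 10.9 in synHPRT1 clone 1 replicate 3, against 32.0 to 43.1 in the other synHPRT1 libraries. At Mocos it was 45.8 in synHPRT1 clone 1 replicate 2, and 12.1 to 18.3 in the others.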

How the results depend on the processing

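The number of broad regions was set by the width limit: 2228 at 1500 bp, 98 at 2500 bp, 241 when a single peak had to reach 2000 bp and 119 when the median span had to. It stayed between 376 and 523 under 5 other settings of the merging, the q-value and the distance, and between 444 and 496 without single libraries. The rank difference between genotypes, far from the threshold throughout, changed sign at 2500 bp (-0.302) and with the strongest −log10 p in place of the fold (-0.0477), and ran between 0.0560 and 1.44 without single libraries. Without single libraries the covered share difference ran between -6.25 and -1.54 percentage points. The difference in peaks per region ran between 0.00557 and 0.0628, and neither carries a test. For peaks per region against depth, which carries no test, r was -0.284 at −log10 q of at least 5 and -0.333 at 2500 bp. Without single libraries it ran between -0.728 and -0.461, the latter without synHPRT1 clone 2 replicate 1. With lists of equal length it was -0.847. For rank against depth, which also carries no test, r ran between -0.777 and -0.698 under 6 other settings. Leaving out single libraries gave an r between -0.824 and -0.714. This r was not computed with the strongest −log10 p in place of the fold. In all 21 alternatives limma called 0 regions, with 1028 to 2096 at an unadjusted p under 0.05. Replicate numbers did not pair the libraries, since correlations of deviations ran between -0.0253 and 0.0303 for same-numbered libraries. With a replicate block the exact permutation test of rank gave p = 0.722, and limma called 0. A stretch not listed in a library was taken as not detected at its depth, and the part of depth in it was not tested.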

Other observations

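On chromosome X, which carried the constructs, 17 of 263 constitutive gene-end regions, or 6.46%, met the same limits, against 5.34% on chromosomes 1 to 19. The widest were at Tbl1x, a subunit of co-repressor complexes, with 2761 bp, at the neural factor Sox3 with 2699 bp and at the growth factor Fgf16 with 2557 bp. The histone demethylase gene Kdm6a had one of 2275 bp. Regions at least 2000 bp wide were also found away from gene ends, where 278 of 13019 constitutive regions, or 2.14%, were that wide. A further 11 broad gene-end regions on chromosomes 1 to 19 had peaks in 1 to 11 libraries.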
